A study of Caenorhabditis elegans with 11 samples.

Results

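The worms in which SACY-1 was depleted from the soma were set directly against those in which it was depleted from the germline, across all 882 genes of the deposited expression table. The members are therefore the 882 of 882 genes listed, each described by log2((soma-depleted + 0.1)/(germline-depleted + 0.1)) of the mean FPKM (fragments per kilobase of transcript scaled to sequencing depth), where 0.1 FPKM keeps low values finite. A positive value is a higher mean in soma-depleted worms, and genes at least 2-fold apart have a log2 difference of 1 or more in size. Fold values below are on this same scale.

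SACY-1 is the Caenorhabditis elegans counterpart of human DDX41, a DEAD-box helicase associated with the spliceosome. Auxin causes the plant F-box protein TIR1 to direct proteins that carry a degron (aid) tag to the proteasome, so the promoter driving TIR1 sets where the tagged protein is lost. The eft-3 promoter is active broadly in somatic cells, and the gld-1 promoter in the germline. The cuticle that covers the worm is built largely from collagens secreted by the epidermis, and in larvae many of these genes are transcribed in waves tied to the molts. Detoxification genes encode enzymes and pumps that modify and export foreign compounds, and small heat-shock proteins bind unfolded proteins.

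The soma-depleted strain DG4703 carried the allele tn1880, which adds aid, gfp and myc tags to sacy-1 on chromosome I, with ieSi57, in which eft-3p drives TIR1::mRuby. The germline-depleted strain DG4700 carried the same sacy-1 allele with ieSi64, in which gld-1p drives TIR1::mRuby. Both transgenes sit on chromosome II with a Cb unc-119(+) marker, and they also differ in their 3' ends, from unc-54 and gld-1. The control strains CA1200 (ieSi57) and CA1352 (ieSi64) have untagged SACY-1, and their labels add unc-119(ed3), which those of the depleted strains do not. All worms were young adults. They spent 24 h at 20 °C on plates with auxin at 2 mM, and whole-worm lysates gave the poly(A)+ RNA. There were 3 soma-depleted, 3 germline-depleted, 3 germline control and 2 soma control samples, each a pool of many animals of 1 strain.

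The table gives 1 authors' mean per group. No spread between replicates, no depth per sample and no test of soma-depleted against germline-depleted worms could be had from it, so every difference below is a description of 2 means and none is shown to exceed replicate error. The authors listed a gene where a depleted group differed from its own control, with an adjusted p under 0.05 and at least 2-fold, in the soma (484 genes), the germline (437 genes) or both. The percentages below are shares of genes chosen in this way and not of the genome. The soma-depleted and germline-depleted means entered both the listing and the differences below. The control means entered the listing too, so patterns over the 4 groups also follow in part from it. The direction of a gene list therefore follows in part from the listing. No transcript of sacy-1 was among the 882 genes, and a degron acts on protein, so the depletion itself is not checked here.

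Soma-depleted worms had far lower means than germline-depleted worms for 11 of 12 collagens that shape the body. Of 13 other genes for the cuticle's precursor layer and molting, 10 were at least 2-fold lower. By contrast, 43 of 55 numbered col collagen genes were under 2-fold apart. Means in soma-depleted worms were at least 2-fold higher for 8 of 14 detoxification genes, among them gst-24, pgp-8 and 3 cyp-33 genes. The same held for the metal-responsive numr genes and for 5 of 9 nuclear hormone receptors. The heat-shock genes stood at almost the same level in both. Of the 882 genes, 102 (11.6%) were at least 2-fold higher in soma-depleted worms and 162 (18.4%) at least 2-fold lower. At 4-fold, 20 genes (2.27%) were higher and 64 (7.26%) lower. The median log2 difference was -0.04, with quartiles at -0.72 and 0.53, and 258 genes (29.3%) lay within 0.32 of equality on the log2 scale, called close here. In these whole worms, fewer cells of a type and less RNA per cell cannot be told apart.

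The 102 higher genes were mostly genes for which soma-depleted worms had the highest mean of all 4 groups (97 of 102). The 162 lower genes were mostly ones for which soma-depleted worms had the lowest mean (139 of 162), while germline-depleted worms had the highest mean for 57 of the 162. Across all 882 genes, soma-depleted worms had the highest mean for 267 genes (30.3%) and the lowest for 269, and germline-depleted worms had the highest mean for 176 (20.0%) and the lowest for 70. A gene higher in soma-depleted than in germline-depleted worms cannot have its lowest mean in the former, so these counts follow in part from the direction chosen.

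**Figure D1:**
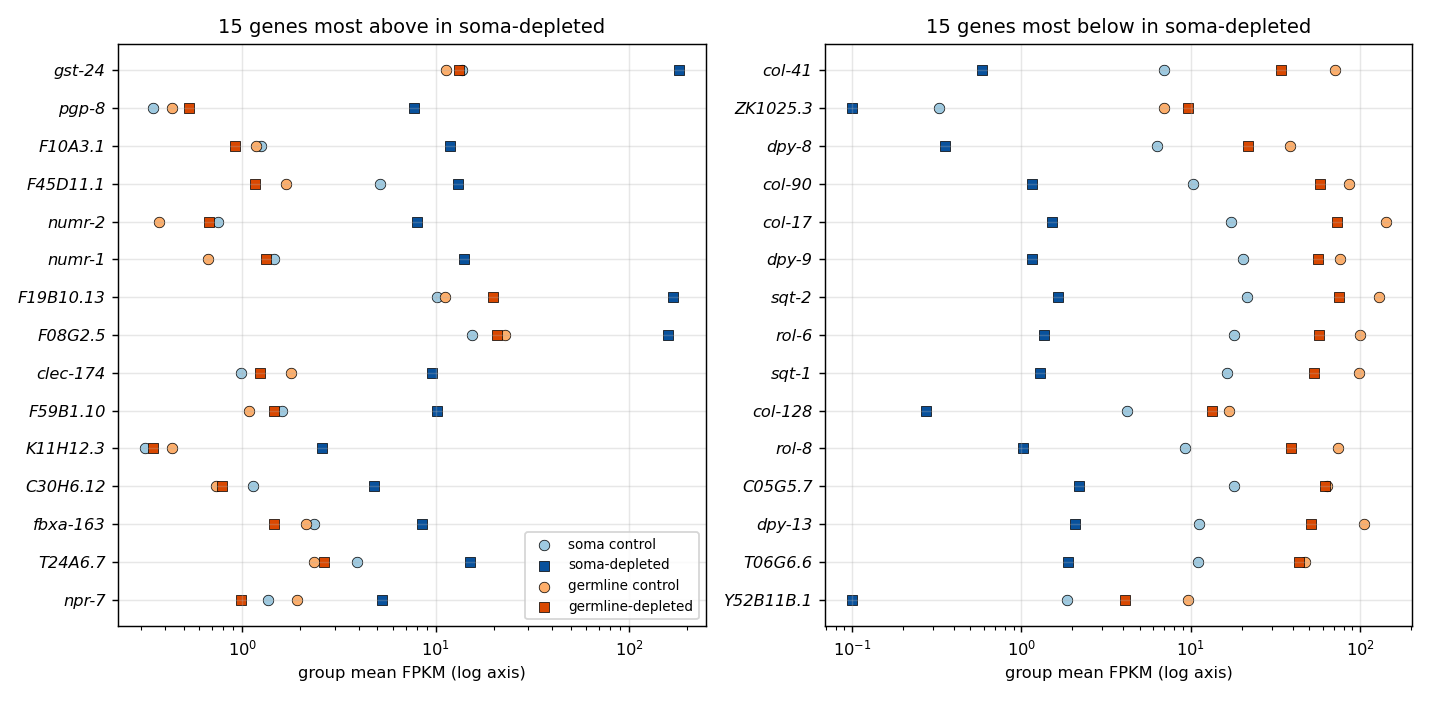
Group mean FPKM (log axis) for the 15 genes with the largest log2 difference in each direction between the depleted groups; each point is the authors' mean of 1 group, with no error available. The soma-depleted squares stand above the other 3 groups for each of the 15 genes at left, led by gst-24 at 181 FPKM, and below them for each of the 15 at right, led by col-41 at 0.587 FPKM.

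Among the higher genes, gst-24 stood first. This glutathione S-transferase gene (chromosome II, 13610443 to 13611366) had a mean of 181 FPKM in soma-depleted and 13.2 FPKM in germline-depleted worms, a 13.6-fold difference. Its control means were 13.7 FPKM (soma) and 11.3 FPKM (germline), so soma-depleted worms alone stood high. The P-glycoprotein gene pgp-8, an ABC transporter of the drug-exporting kind (chromosome X, 10859301 to 10864422), had 7.69 FPKM in soma-depleted worms against 0.529 in germline-depleted worms, 12.4-fold, with both controls under 0.5 FPKM.

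Of 14 detoxification genes, 8 (57.1%) were at least 2-fold higher in soma-depleted worms and 1 (7.14%) lower, beside 11.6% and 18.4% of all genes. Their median log2 difference was 1.06 beside -0.04 over all listed genes. The authors called 8 of the 14 higher and 5 lower in soma-depleted worms than in the soma control (adjusted p under 0.05). Of all 882 genes, they called 262 higher and 263 lower, and the direction follows in part from the listing. The cytochrome P450 gene cyp-33B1 had 7.23 FPKM against 1.42 FPKM, and its relatives cyp-33C1 and cyp-33C2 had log2 differences of 1.68 and 1.66. The glucuronosyltransferase gene ugt-63 had 35.6 FPKM in soma-depleted and 8.90 FPKM in germline-depleted worms, but here the soma control mean (15.8 FPKM) was also above the germline control mean (7.76 FPKM). Other transferases of the list had the opposite sign, with log2 differences of -0.995 for gst-22, -0.31 for gst-9 and -0.30 for gst-2. The exception past 2-fold was another P-glycoprotein gene, pgp-1, with 3.13 FPKM in soma-depleted and 8.13 FPKM in germline-depleted worms.

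The pair numr-1 and numr-2, neighbours on chromosome III that encode nuclear proteins induced by metals, had 14.04 and 7.97 FPKM in soma-depleted worms. In germline-depleted worms they had 1.32 and 0.676 FPKM, so the pair stood 9.93-fold and 10.4-fold apart. Reads may be shared between these near-identical copies, so their separate values are uncertain. The metallothionein gene mtl-2, whose small protein binds metal ions, and the ferritin gene ftn-1, for iron storage, had smaller log2 differences of 0.88 and 0.93. For mtl-2 the levels were far higher, at 2101 FPKM in soma-depleted worms, 1144 FPKM in germline-depleted worms and 1006 and 1022 FPKM in the soma and germline controls.

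Nuclear hormone receptors are ligand-regulated transcription factors of a family much enlarged in worms. Of 9 listed, 5 (55.6%) were at least 2-fold higher in soma-depleted worms, beside 11.6% of all genes, and none was lower. The authors called 7 of the 9 higher in soma-depleted worms than in the soma control (adjusted p under 0.05). The direction therefore follows in part from the listing. For nhr-71 the means were 15.1 FPKM in soma-depleted and 5.01 FPKM in germline-depleted worms, with 5.56 and 6.23 FPKM in the soma and germline controls. For nhr-243 they were 18.4 and 6.42 FPKM, with 7.99 and 6.32 FPKM in the controls. The other members past 2-fold were nhr-180, nhr-56 and nhr-190, with log2 differences of 1.35, 1.16 and 1.05. The receptors nhr-14 (-0.61) and nhr-127 (-0.45) lay on the other side of 0, so the family did not stand as one.

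Genes known by sequence names filled much of the rest of the higher end. F10A3.1 had 11.8 FPKM in soma-depleted and 0.918 FPKM in germline-depleted worms, F19B10.13 had 169 and 19.9 FPKM, and F08G2.5 had 158 and 20.7 FPKM. The pseudogene F45D11.1 had 12.99 and 1.16 FPKM. The C-type lectin gene clec-174 had 9.59 and 1.24 FPKM, the F-box gene fbxa-163 had 8.53 and 1.46 FPKM, and the neuropeptide receptor family gene npr-7 had 5.26 and 0.987 FPKM. F59B1.10, T24A6.7, C30H6.12 and K11H12.3 completed the 15, with log2 differences from 2.46 to 2.71. In all 15, the 2 control means were closer to the germline-depleted mean than to the soma-depleted mean on the linear scale.

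The lower end was led by collagens. The body-shape collagens are named for the mutants that revealed them: dumpy (dpy), squat (sqt), roller (rol), long (lon) and blistered (bli). Of the 12 listed, 11 (91.7%) were at least 2-fold lower in soma-depleted worms, beside 18.4% of all genes, and none was higher. Their median log2 difference was -4.85, a 28.8-fold difference, beside -0.04 over all listed genes. The authors called 11 of the 12 lower in soma-depleted worms than in the soma control (adjusted p under 0.05), beside 263 of the 882. The direction of this list therefore follows in part from the listing.

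The furrow collagen gene dpy-8 (chromosome X, 5148804 to 5150476) had 0.352 FPKM in soma-depleted worms and 21.8 FPKM in germline-depleted worms, 48.4-fold apart, with 6.31 and 38.6 FPKM in the soma and germline controls. The furrow collagen gene dpy-9 had 1.16 against 56.3 FPKM, and the roller collagen gene rol-6 had 1.36 against 57.3 FPKM. The squat collagen genes sqt-1 and sqt-2 had 1.29 and 1.66 FPKM in soma-depleted worms against 53.4 and 75.4 FPKM. In each of these genes soma-depleted worms had the lowest mean and germline controls the highest.

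Lesser differences within the list were those of dpy-5 (19.3-fold lower), lon-3 (17.7-fold lower) and the third furrow collagen gene, dpy-3 (5.61-fold lower). The collagen gene bli-6 stood apart from the rest of the list, with 2.52 FPKM in soma-depleted and 1.24 FPKM in germline-depleted worms, a log2 difference of 0.97. A difference of the same sign was present between the 2 control groups: all 12 genes were at least 2-fold lower in the soma control than in the germline control, with a median log2 difference of -2.58. Beside this, 144 of all 882 genes (16.3%) were at least 2-fold lower in the soma control. The depleted groups were thus farther apart than the controls for 11 of the 12, and bli-6 was on the other side of 0.

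Numbered col genes were mixed. Of 55 listed, 11 (20%) were at least 2-fold lower in soma-depleted worms, near the 18.4% of all genes, and 1 was higher. The median log2 difference was 0.18. Between the controls, 33 of the 55 were at least 2-fold lower in the soma control, beside 16.3% of all genes, with a median log2 difference of -1.28. Among the lower ones, col-41 had 0.587 FPKM in soma-depleted and 34.2 FPKM in germline-depleted worms, col-17 had 1.51 and 73.4 FPKM, and col-90 had 1.16 and 57.8 FPKM. The collagen gene col-128 had 0.274 and 13.3 FPKM. All 11 lower genes were among the 36 col genes with a soma control mean under 50 FPKM, of which 1 was higher and 24 were under 2-fold apart, with a median log2 difference of -0.06.

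None of the 19 more abundant col genes was 2-fold apart. All 7 col genes with a soma control mean of at least 300 FPKM had a higher mean in soma-depleted than in germline-depleted worms, with log2 differences between 0.20 and 0.80, none reaching 2-fold. For col-119, the means were 2227 FPKM in soma-depleted worms, 1812 FPKM in germline-depleted worms and 970 and 1302 FPKM in the soma and germline controls. For col-140 they were 1893, 1514, 679 and 1090 FPKM in the same order. In both genes the depleted means stood above both control means. The single col gene past 2-fold on the higher side was col-80, with 150 FPKM in soma-depleted and 72.4 FPKM in germline-depleted worms.

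**Figure D2:**
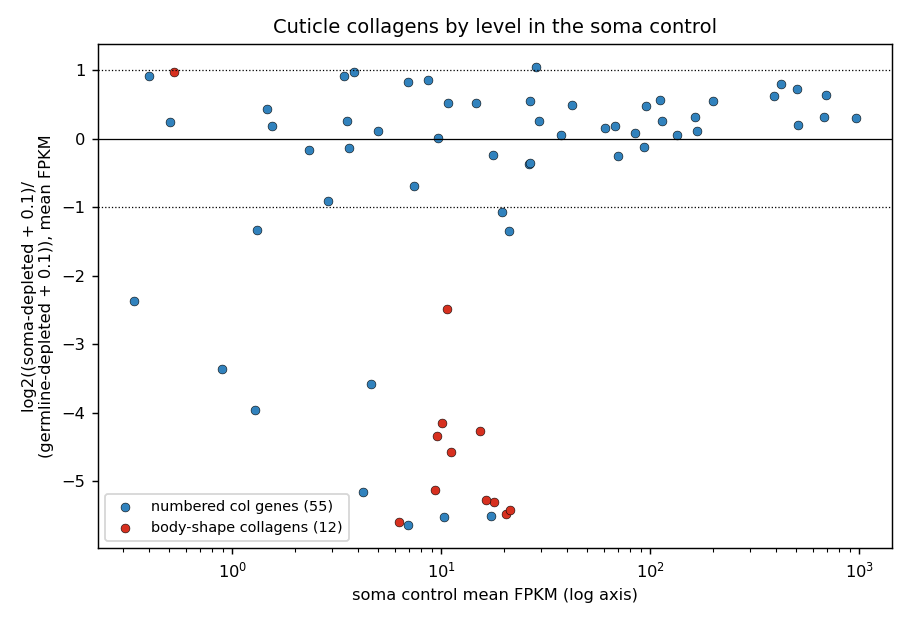
Log2 difference between the depleted groups against the soma control mean FPKM (log axis) for 55 numbered col genes and 12 body-shape collagens; dotted lines mark 2-fold, and each point is 1 gene's group means, with no error available. Collagens above 50 FPKM in the soma control lie between -0.26 and 0.80, while 11 of the 12 body-shape collagens and 11 numbered col genes lie below -1.

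Genes for the apical matrix, the glycoprotein layer under which each new cuticle forms, and for molting lay on the same side as the body-shape collagens. Of 13 such genes, 10 (76.9%) were at least 2-fold lower in soma-depleted worms, beside 18.4% of all genes, and none was higher. The median log2 difference was -2.15. Between the controls, 8 of the 13 were already at least 2-fold lower in the soma control, beside 16.3% of all genes, with a median of -1.09. The authors called 10 of the 13 lower in soma-depleted worms than in the soma control (adjusted p under 0.05), beside 263 of the 882. The direction of these genes therefore follows in part from the listing. The mucin-like gene dpy-6 had 0.803 FPKM in soma-depleted and 8.23 FPKM in germline-depleted worms. The astacin protease gene nas-3 had 1.78 and 13.4 FPKM, with a germline-depleted mean above both controls (5.90 and 7.55 FPKM). The hedgehog-related gene qua-1 had a log2 difference of -2.42. The lipocalin-related genes lpr-3, lpr-5 and lpr-4 lie together on chromosome X, between 11057401 and 11066811, and had log2 differences of -2.21, -2.26 and -1.86. The zona pellucida domain gene noah-2 had -2.12, whereas mlt-7, for a peroxidase that crosslinks the cuticle, had -0.53 and grd-13 had 0.02.

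Other genes at the lower end had sequence names. ZK1025.3 was listed at 0.1 FPKM in soma-depleted worms, the lowest value of that group, against 9.70 FPKM in germline-depleted worms. Its control means were also far apart, at 0.326 FPKM in the soma control and 6.95 FPKM in the germline control. Y52B11B.1, also at 0.1 FPKM, had 4.09 FPKM in germline-depleted worms. C05G5.7 had 2.18 and 62.1 FPKM and T06G6.6 had 1.88 and 43.5 FPKM. The gene with the highest level of all, F53A9.8 on chromosome X, had 3384 FPKM in soma-depleted worms against 10427 FPKM in germline-depleted worms, 7682 FPKM in soma controls and 9407 FPKM in germline controls, so that soma-depleted worms alone stood low.

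**Figure D3:**
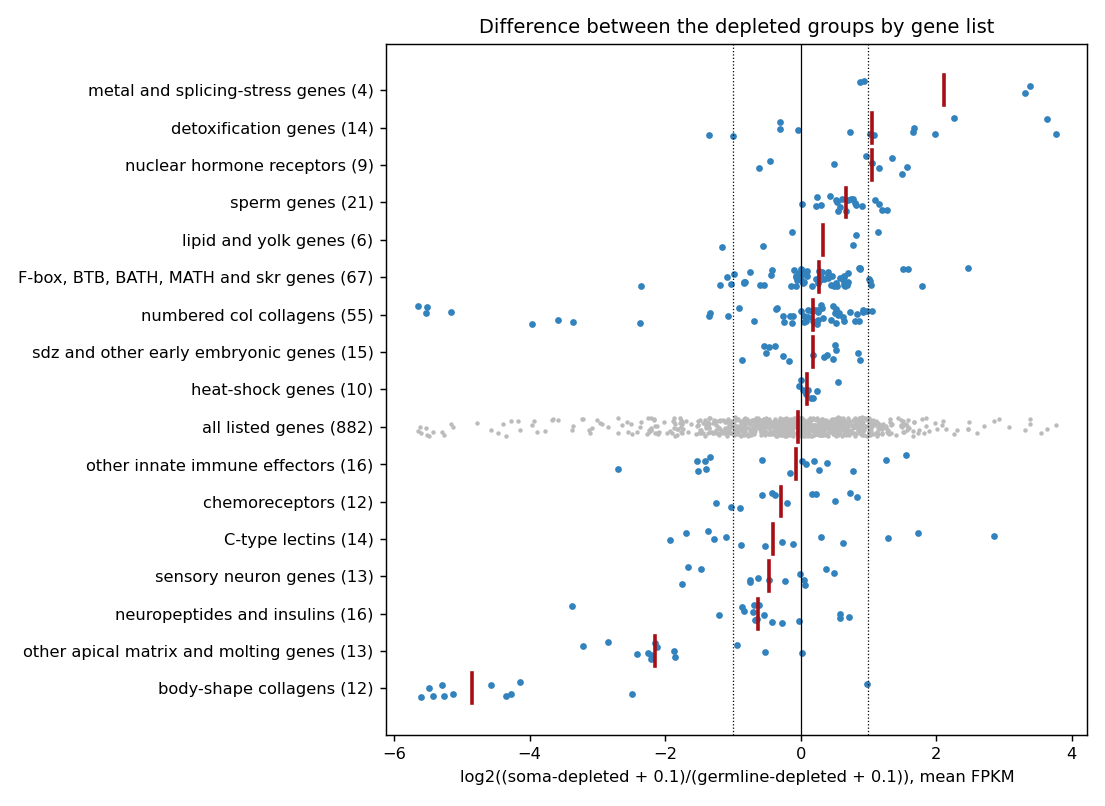
Log2 difference between the depleted groups for each gene (points, spread vertically for legibility) of the lists with at least 4 members, ordered by median (red bars); dotted lines mark 2-fold, and the numbers of genes are in parentheses. Body-shape collagens have a median of -4.85 and other apical matrix and molting genes of -2.15, against -0.04 for all 882 listed genes; the 2.12 of the metal and splicing-stress genes rests on 4 genes, including the near-identical numr pair, and was 0.93 at a mean count of at least 100.

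Immune and signalling genes lay on both sides. Of 14 C-type lectin genes, 3 (21.4%) were at least 2-fold higher and 5 (35.7%) lower in soma-depleted worms, beside 11.6% and 18.4% of all genes. The neighbours clec-227, clec-54 and clec-55 on chromosome V (14472529 to 14482317) had log2 differences of -1.37, -1.69 and -1.27. The lectin gene clec-52 had 372 FPKM in soma-depleted worms against 151 FPKM. Of 16 other immune effector genes, 2 (12.5%) were higher, near the share of all genes, and 6 (37.5%) lower. The antimicrobial peptide gene cnc-2 had 26.2 FPKM in soma-depleted and 170 FPKM in germline-depleted worms, with 69.5 and 114 FPKM in the soma and germline controls, so the depleted means lay on either side of both controls. The saposin-like gene spp-18 had 221 and 579 FPKM, with 490 and 466 FPKM in the controls.

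Of 16 neuropeptide and insulin genes, 2 (12.5%) were at least 2-fold lower in soma-depleted worms, a smaller share than the 18.4% of all genes, and none was higher. A negative log2 difference was found in 13 of the 16, beside 458 of 882 genes (51.9%), with a median of -0.63. The authors called 12 of the 16 lower in soma-depleted worms than in the soma control (adjusted p under 0.05), beside 263 of the 882. The sign of these genes therefore follows in part from the listing. The insulin-like gene ins-33 had 1.07 FPKM in soma-depleted and 12.03 FPKM in germline-depleted worms, with 4.45 and 10.5 FPKM in the controls. The other was ins-14, with 2.31 and 5.45 FPKM. Soluble guanylate cyclases that sense oxygen in a small set of neurons had log2 differences of -1.75 (gcy-37), -1.66 (gcy-36), -1.48 (gcy-32) and -0.74 (gcy-35). Genes of touch receptor neurons in the same list of 13 sensory neuron genes were closer together, from -0.47 for the beta-tubulin gene mec-7 to 0.38 for the matrix gene mec-1. The neuronal gene unc-119, used as a transformation marker, had 22.8 FPKM in soma-depleted and 7.96 FPKM in germline-depleted worms, with 8.91 and 5.74 FPKM in the soma and germline controls. All 4 strains carry a Cb unc-119(+) copy, and whether its reads enter this value was not tested. The control labels also add the allele unc-119(ed3), which those of the depleted strains do not. Between depleted and control worms, allele and depletion therefore cannot be told apart for this gene.

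Sperm genes were all on the higher side, but by small amounts. Each of the 21 listed had a higher mean in soma-depleted than in germline-depleted worms, beside 424 of all 882 genes. The difference was at least 2-fold in 4 of them (sss-1, msp-33, msp-40 and nspd-3), and the median log2 difference was 0.67. The authors called all 21 higher in soma-depleted worms than in the soma control (adjusted p under 0.05), beside 262 of the 882. The shared direction therefore follows in part from how genes were listed. The list median was 6.26 FPKM in soma-depleted worms, 3.81 FPKM in germline-depleted worms and 1.95 and 2.25 FPKM in the soma and germline controls. The msp and nspd families hold near-identical copies that share reads, so the 21 genes are not separate observations. The sperm marker families, with 18 genes listed, summed to 148 and 93.6 FPKM in the depleted groups and 50.8 and 57.7 FPKM in the controls. The part of sperm number in this result was not tested. None of the 12 oocyte and germline markers or 5 muscle markers was among the 882 genes, and genes outside the table were not analysed here.

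The same contrast without the tagged SACY-1 is that of soma control against germline control, which shares no sample with the depleted groups. In it, 225 genes (25.5%) were at least 2-fold higher and 144 (16.3%) at least 2-fold lower in the soma control. The interquartile range of the log2 difference was 1.72 between the controls and 1.259 between the depleted groups. Of the 162 genes lower in soma-depleted worms, 65 were also at least 2-fold lower in the soma control and 5 were higher there. Of the 102 genes higher in soma-depleted worms, 11 were also higher in the soma control and 4 were lower. Across the 882 genes, the control and depleted log2 differences had a Pearson r of 0.36 and a Spearman rho of 0.17. Genes are not independent replicates, and the listing left few genes with equal differences in both: the depleted difference was close to the control difference for 23 genes (2.61%), at least 2-fold above it for 201 (22.8%) and at least 2-fold below it for 384 (43.5%). Centred on the median gene, these last 2 counts were 336 and 96, so the split between them depends on the scaling.

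**Figure D4:**
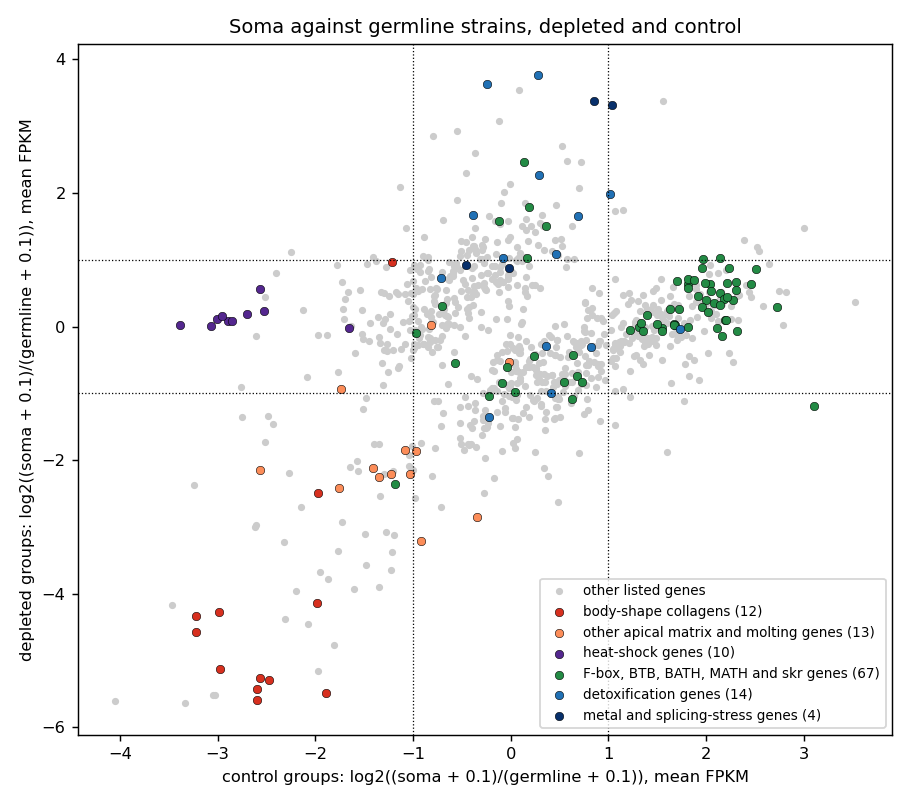
Log2 difference between soma and germline strains in the depleted groups (vertical) against the same difference in the control groups (horizontal) for 882 genes; colours mark gene lists and dotted lines 2-fold, and no error is available. Heat-shock genes lie at the left near 0 on the vertical axis (medians -2.87 and 0.09), F-box and related genes at the right near 0 (1.81 and 0.27), and body-shape collagens at the lower left (-2.58 and -4.85).

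Some genes far apart in the controls lay close together after depletion. In the controls, 106 genes (12%) were at least 4-fold apart and 205 (23.2%) were close. Of the 106, 27 (25.5%) were close after depletion, no larger a share than the 29.3% of all genes. Among these 27, 8 were heat-shock genes, 8 belonged to the F-box, BTB, BATH, MATH and skr list and 9 to no list. Of the 10 heat-shock genes, 9 were close between the depleted groups, and all 10 were at least 2-fold lower in the soma control than in the germline control. The small heat-shock gene hsp-16.41 had 145 and 142 FPKM in soma-depleted and germline-depleted worms, against 47.0 and 494 FPKM in the respective controls. For hsp-16.2 the corresponding values were 111 and 103 FPKM, against 38.4 and 309 FPKM. For the HSP70 family gene F44E5.5 they were 21.5 and 21.4 FPKM, against 8.08 and 68.5 FPKM. The exception was hsp-70, with 29.8 and 20.3 FPKM in the depleted groups. In each of these genes the depleted means lay between the 2 control means, so the nearness of the depleted groups does not mean that either equalled its control. The authors called 9 of the 10 higher in soma-depleted worms than in the soma control, beside 262 of the 882. They called all 10 lower in germline-depleted worms than in the germline control (adjusted p under 0.05), beside 186 of the 882. The heat-shock pattern therefore follows in part from the listing.

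Adaptor genes of ubiquitin ligases were also nearer each other in the depleted groups than in the controls, but with another pattern over the 4 groups. The F-box and BTB or MATH domain families supply substrate adaptors, and skr genes encode Skp1-related linkers. Of the 67 listed, 48 were at least 2-fold higher in the soma control than in the germline control, beside 25.5% of all genes. Between the depleted groups, 7 (10.4%) were higher and 4 (5.97%) lower, beside 11.6% and 18.4% of all genes. The list medians were 4.89, 5.22 and 4.66 FPKM in soma control, soma-depleted and germline-depleted worms and 1.95 FPKM in the germline control. Only the germline control median stood apart. The authors called 56 of the 67 higher in germline-depleted worms than in the germline control (adjusted p under 0.05), beside 369 of the 882. The low germline control median therefore follows in part from the listing. The Skp1-related gene skr-8, which lies beside skr-9, skr-12 and skr-13 on chromosome IV, had 49.5 and 50.2 FPKM in soma-depleted and germline-depleted worms and 57.3 and 13.2 FPKM in the respective controls. Here 3 groups were close and the germline control was low. The F-box gene fbxb-96 had 3.18 and 2.58 FPKM, against 3.80 and 0.490 FPKM. Of the members 2-fold apart between the depleted groups, fbxa-163 on the higher side was close in the controls. On the lower side, fbxa-125 had 1.13 and 6.203 FPKM, and 0.767 and 1.88 FPKM in the controls. Copies in these families are close enough to share reads. The 15 sdz and other early embryonic genes had no member 2-fold apart between the depleted groups, although 11 were at least 2-fold higher in the soma control.

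**Figure D5:**
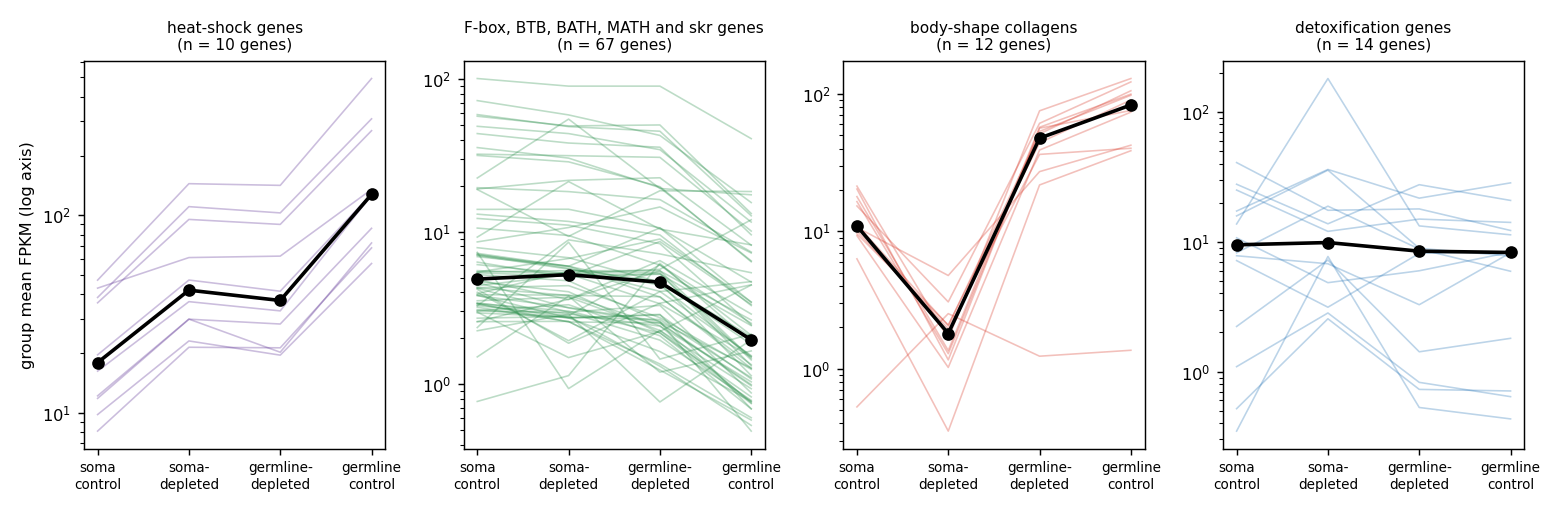
Group mean FPKM (log axis) of each gene (thin lines, which only join values of the same gene) and the list median (black) in soma control, soma-depleted, germline-depleted and germline control worms for 4 gene lists. Heat-shock medians are 17.97, 41.8, 37.1 and 128 FPKM in that order, F-box and related medians are 4.89, 5.22, 4.66 and 1.95 FPKM, and body-shape collagen medians are 10.9, 1.81, 47.7 and 83.2 FPKM.

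Other genes were apart after depletion and close in the controls. At 4-fold, the limit used for the 27 genes above, these were 10 of 84 genes (11.9%), a smaller share than the 23.2% of all genes close in the controls. At 2-fold they were 86 genes, 45 of the 102 higher and 41 of the 162 lower in soma-depleted worms. Of the 86, 63 (73.3%) belonged to no list, beside 582 of 882 genes (66%). Besides gst-24, pgp-8 and F19B10.13, they included R03H10.6, with 6.55 and 1.41 FPKM in soma-depleted and germline-depleted worms and 1.06 and 1.07 FPKM in the controls. C25F9.16 had 24.8 and 6.07 FPKM, with 6.74 and 7.06 FPKM in the controls. On the lower side, Y51H7C.1 had 1.88 and 11.1 FPKM, with 7.56 and 9.16 FPKM in the controls. A few genes stood out through the germline-depleted mean. C45B2.8, whose controls were not close by the limit used, had 8.66 FPKM in germline-depleted worms and 1.31 FPKM in soma-depleted worms, with 0.848 and 0.577 FPKM in the controls. Y54G2A.36, named here after its values were seen, had 192 FPKM in germline-depleted and 52.2 FPKM in soma-depleted worms, with 43.0 and 36.2 FPKM in the controls.

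The genes apart in the 2 directions differed in other respects, which are given as counts with no test. On chromosome X, 30 of 127 listed genes (23.6%) were at least 2-fold lower in soma-depleted worms and 7 (5.51%) higher, beside 18.4% and 11.6% over all chromosomes. The share of lower genes was 20.8% on chromosome I and 20.8% on chromosome V, where 8.49% and 15.5% were higher, so chromosome X was not far from these. Pseudogenes made up 9 of the 102 higher genes and 2 of the 162 lower genes, beside 42 of all 882 (4.76%). Splicing events with a false discovery rate q-value under 0.05 after soma depletion, in the authors' deposited table of splicing, were matched by gene name. At least 1 such event was matched to 14 of the 102 higher genes (13.7%) and 10 of the 162 lower genes (6.17%). The same was true of 27 of the 618 genes under 2-fold apart (4.37%). The genes matched in this way included npr-7, nhr-71 and F45D11.1 on the higher side and grl-16 on the lower. Events after germline depletion were matched to 3 (2.94%), 4 (2.47%) and 17 (2.75%) genes of the same classes, which are nearly equal shares. Events after either depletion were matched to 68 of all 882 genes. Of the 102 higher genes, 89 were called higher by the authors in the same soma comparison (adjusted p under 0.05). Both readouts come from the same libraries. Of the 882 genes, 231 overlap another annotated gene, among them col-41, dpy-8, col-90 and col-119, where that gene lies on the opposite strand. No source used here states whether strand was used in counting, so reads of such pairs may be mixed.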

How the data were processed

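Expression was measured by sequencing of poly(A)+ RNA in 11 samples. The authors deposited group mean FPKM values, pooled over replicates and normalized per the file headers, with gene identifiers of Ensembl release 97. The authors' deposited log2 ratios against controls, with their adjusted p-values (Benjamini-Hochberg), served to describe how genes were listed. The authors' deposited false discovery rate q-values of splicing events (counted under 0.05) come from a table of 3096 events. The submitters' processing notes name STAR 2.7.2a, DESeq2 1.26.0, SAMtools 1.7, cutadapt 1.18 and Trim Galore 0.6.0, and the build WBcel235/ce11. No source used here names the read counter. The authors' mean count over all samples ran from 25.3 to 72951 (median 162), and depth per sample is unknown.

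Log2 differences used a pseudocount of 0.1 FPKM, which understates differences of low genes, and 2-fold as the limit. Group means allow no test, standard error or interval. Positions and overlaps come from the Ensembl release 115 annotation of WBcel235, which held 881 of 882 identifiers. The members and all 18 gene lists, matched by gene symbol, were chosen with earlier results of these data known, and their members were assigned after the gene names in the table were seen. Named genes were the 15 largest differences in each direction (with at least 1 FPKM in a depleted group, which all 882 genes had), up to 4 per list, the 10 largest shifts between control and depleted differences, genes close or apart in 1 contrast only, and the 10 highest levels; other list members are named as examples chosen after their values were seen. The counting was tested on simulated data. Values were computed with pandas 2.3.3, numpy 2.4.6 and scipy 1.17.1 under Python 3.11.15, and drawn with matplotlib 3.10.9.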

Additional observations from a re-analysis of the deposited data

How the results depend on the processing

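No paired analysis was possible because the files hold group means only, and for the same reason no replicate could be left out. With a pseudocount of 1 FPKM, 67 genes were at least 2-fold higher (130 lower) in soma-depleted worms, 14 genes came together from 4-fold in the controls, and the body-shape collagen median was -4.08. With a mean count of at least 100 (583 genes), 62 genes were higher (120 lower), 136 were higher in the soma control, and the median of the metal and splicing-stress genes was 0.93. At 1.5-fold, 201 genes were higher and 253 lower between the depleted groups and 239 lower in the soma control; at 4-fold these were 20, 64 and 43, with 63 higher in the soma control. Among the 437 genes listed for the germline, 15 were higher and 36 lower. The difference shifted from controls to depleted groups by at least 2-fold upwards in 201 genes and downwards in 384, but 336 and 96 when centred on the median gene, whose shift was -0.80. These counts were 247 downwards at a mean count of at least 100, 302 upwards at 1.5-fold, and 44 and 65 at 4-fold. No list median past 2-fold changed sign under the alternatives run. For a named gene past 2-fold, none of these alternatives could change the sign, so the signs of named genes were not tested. Of 530 values of named genes, 31 moved by over 1.5-fold. This share says little about stability, because the filters on level and mean count leave a gene's value unchanged. The unknown depth limits low genes most, such as those listed at 0.1 FPKM.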
